A study of Mus musculus with 9 samples.

Results

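Gene desert contacts are the listed chromatin interactions whose anchor midpoints both lay at least 200 kb from the body of every protein-coding gene of GRCm38. They were taken from chromosomes 1 to 19, with anchor midpoints at least 10 kb apart. Over the 10 deposited tables, 153900 of 4477867 used interactions met this rule, and the other 4323967 served as the comparison. The deserts themselves were 728 stretches with a median length of 345 kb. Together they made up 457.7 of the 2399 Mb between the first and last listed anchors of these chromosomes, or 19.1%, and 629 of them held a desert contact within 1 desert in at least 1 table.

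HiChIP joins proximity ligation of chromatin with immunoprecipitation, so each read pair links DNA segments that lay close together near the precipitated protein or histone mark. It was done on sorted CD4+ CD8+ (double-positive) thymocytes of C57BL/6J mice (BL6), of NOD/ShiLtJ mice (NOD) and of an F1 cross of NOD/ShiLtJ and C57BL/6, with no treatment. The antibody was against Smc1, a cohesin subunit, or against the histone mark H3K27ac, with 2 libraries for each antibody in BL6 and in NOD and 1 F1 library with Smc1. Per the labels, the Smc1 libraries of a strain are technical replicates of 1 biological replicate, while the H3K27ac libraries are 2 biological replicates. The deposited table names number the Smc1 NOD libraries 2 and 3 where the sample titles have 1 and 2, and the titles' numbers are used. Every test over libraries counts the technical Smc1 libraries as separate, so the spread behind p-values that involve Smc1 may be technical. Smc1 stands in the titles of all 4 H3K27ac samples, and their antibody field was followed instead, so all antibody comparisons rest on that field. Reads of NOD libraries were mapped to the NOD genome and lifted to BL6 coordinates, as the table names say, so strain and mapping genome cannot be told apart. Tables of both kinds exist for F1. Contacts cannot check the sorted cell type by marker expression.

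Gene deserts are long stretches without protein-coding genes. Some hold distant enhancers of a developmental regulator at their edge, and others are mostly inactive chromatin bound to the nuclear lamina. Cohesin extrudes DNA loops along the chromosome, in genes and between them, until it meets CTCF or is released. H3K27ac marks active enhancers and promoters, so its HiChIP contacts are drawn to active elements, and in a desert such elements are distant enhancers or promoters of noncoding RNA genes.

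The depth of the tables ranged from 381002 to 2620621 used read pairs. Smc1 libraries of the parental strains held 1484541 to 2620621, the H3K27ac libraries 381002 to 1203733, and the F1 library 765174 and 791845 (BL6 and NOD genome). No table lists an interaction with fewer than 2 read pairs or a q-value over 0.05, so a contact that is not listed was under that limit and not measured as 0. Some libraries stood apart from their partners within deserts. Smc1 NOD library 2 and H3K27ac BL6 library 1 had the highest desert shares of their antibody. In H3K27ac, the libraries numbered 1 of both strains, and likewise those numbered 2, deviated together from their strain means over 100 kb bins (correlation 0.72 over 15103 bins of these 4 libraries, which share their bins and scaling, with no test). The corresponding value for Smc1 was 0.098 over 23248 bins.

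Desert contacts were a much smaller share of the H3K27ac tables than of the Smc1 tables. In Smc1 they made up 4.21% and 4.15% of used interactions in BL6 libraries 1 and 2, 3.49% and 5.26% in NOD libraries 1 and 2, and 3.44% and 3.42% in the F1 library on the BL6 and the NOD genome. In H3K27ac they made up 1.61% and 0.937% in BL6 and 1.25% and 0.722% in NOD. Every Smc1 table lay above every H3K27ac table. Both anchors must lie in a desert here, so these shares are not like the 19.1% of the territory that is desert. Of single anchors, each counted once, 11.6% to 14.8% lay in deserts in the parental Smc1 libraries and 3.81% to 7.41% in H3K27ac. These anchor shares lay below 19.1%. The mean share of desert contacts was 4.28% over the 4 parental Smc1 libraries and 1.13% over the 4 H3K27ac libraries. The difference was -3.15 percentage points. A two-sided exact permutation test over the 8 libraries gave p = 0.0286, the smallest that 4 against 4 allows, and 0.0667 after Benjamini-Hochberg adjustment over 7 library tests, which misses 0.05. Within BL6 the difference was -2.91 points and within NOD it was -3.39 points. Relabelling within strain gave an exact p of 0.0556, the smallest that this relabelling allows.

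The H3K27ac libraries were shallower, and the part of depth in this difference was not tested by thinning. The F1 Smc1 library, 1 library of another genotype, had 765174 read pairs on the BL6 genome and a desert share of 3.44%. H3K27ac BL6 libraries 1 and 2 had 440896 and 1203733 read pairs and shares of 1.61% and 0.937%. These libraries were not matched for depth, so nothing about depth is drawn from them. Contacts with exactly 1 desert anchor showed the same order of the antibodies. They made up 11.15% to 14.96% of interactions in the parental Smc1 libraries and 6.29% to 9.30% in the H3K27ac libraries.

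**Figure D1:**
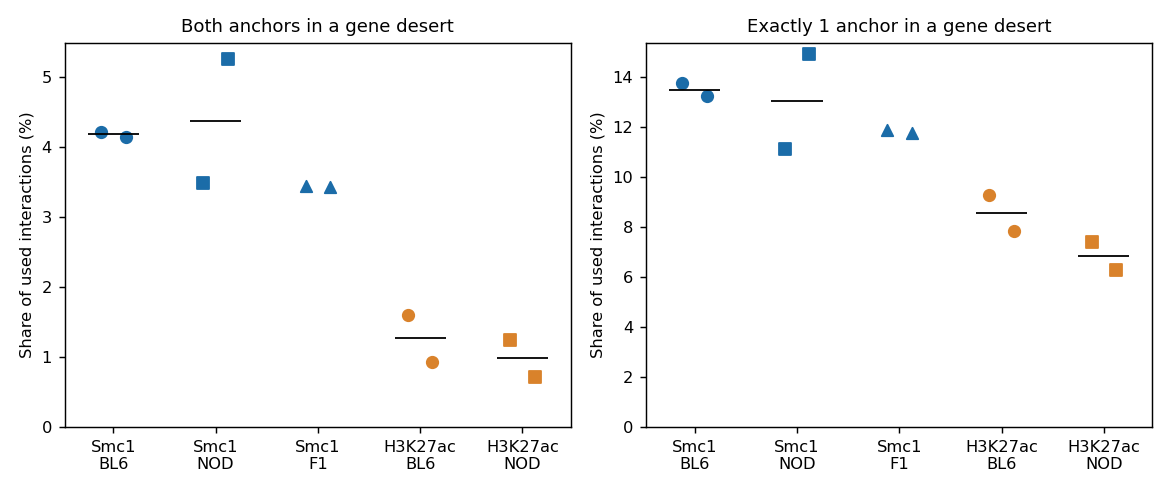
Share of used interactions (%) with both anchors (left) or exactly 1 anchor (right) in a gene desert, by antibody and strain. Points are libraries (for F1, 1 library on both genomes) and black lines are means of the 2 libraries of a group; all Smc1 points, 3.42% to 5.26% on the left, lie above all H3K27ac points, 0.722% to 1.61%.

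The difference between antibodies grew with distance from genes. With each interaction placed by whichever anchor was nearer to a gene, 69.8% ± 1.33 (SD, n = 4 libraries) of Smc1 interactions and 78.4% ± 1.58 of H3K27ac interactions had an anchor inside a gene body. The Smc1 share divided by the H3K27ac share was 0.891 there, 1.15 up to 50 kb, 1.52 at 50 to 100 kb and 1.90 at 100 to 200 kb. Past the desert limit it was 2.71 at 200 to 300 kb, 3.71 at 300 to 500 kb, 7.27 at 500 kb to 1 Mb and 12.3 over 1 Mb. Farthest from genes, over 1 Mb, the 4 Smc1 libraries held 0.207% to 0.454% of their interactions and the 4 H3K27ac libraries 0.00399% to 0.0801%. The last class is thin in H3K27ac, with 135 interactions in BL6 library 1 and only 18, 22 and 8 in BL6 library 2 and NOD libraries 1 and 2.

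There was no step at the limit itself. Just outside it, at 150 to 200 kb, lay 1.19% to 1.51% of the interactions of the parental Smc1 libraries, and just inside, at 200 to 250 kb, 0.835% to 1.07%. For H3K27ac the values were 0.460% to 0.786% outside and 0.269% to 0.488% inside.

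**Figure D2:**
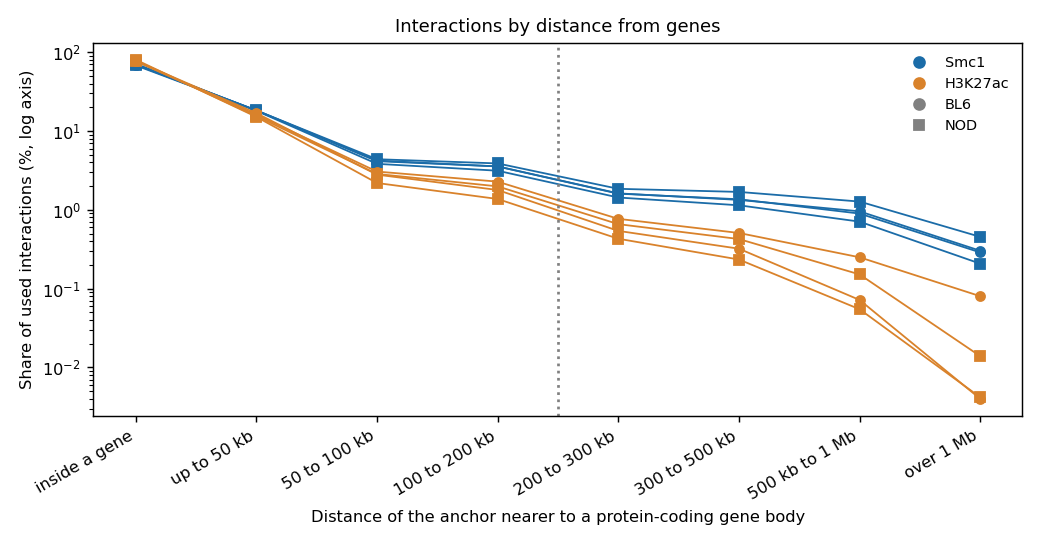
Share of used interactions (%, log axis) by distance of the anchor nearer to a protein-coding gene body, 1 line per parental library; the dotted line marks the 200 kb desert limit. H3K27ac lies above Smc1 inside genes and below it in every other class, and the gap widens with distance, down to 0.207% to 0.454% for Smc1 and 0.00399% to 0.0801% for H3K27ac over 1 Mb.

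Spans of desert contacts were shorter than those of other interactions in all 8 parental libraries. The median span in deserts was 565 and 482 kb in Smc1 BL6 libraries 1 and 2, against 773 and 706 kb elsewhere, and 336 and 626 kb in Smc1 NOD libraries, against 570 and 747 kb. In H3K27ac it was 555 and 355 kb in BL6, against 776 and 812 kb, and 241 and 367 kb in NOD, against 548 and 771 kb. The mean log2 ratio of medians was -0.74, a desert span of 0.597 times the other. A two-sided exact permutation test within libraries gave p = 0.00781, the smallest 8 libraries allow, and 0.0273 adjusted over 7. It counts the technical Smc1 libraries as separate, so 8 is more than the number of biological replicates. The rule itself bounds the span, because a contact within 1 desert cannot be longer than the desert. The span difference is therefore given as a description of the chosen contacts. At a q-value up to 0.01 it was -0.32 with an exact p of 0.0781. Desert spans of the 2 antibodies differed by -0.43 on the log2 scale, H3K27ac minus Smc1, which did not pass (exact permutation p = 0.257; 0.45 adjusted).

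Within each class of span the antibodies kept their order. Of contacts spanning 10 to 100 kb, 7.97% ± 0.547 (SD, n = 4) lay in deserts in Smc1 and 3.01% ± 0.603 in H3K27ac. At 100 to 500 kb the desert shares were 5.10% ± 0.656 and 1.62% ± 0.336, and at 500 kb to 1 Mb they were 3.79% ± 1.03 and 0.820% ± 0.368. From 1 to 2 Mb they were 3.11% ± 0.933 and 0.604% ± 0.418. In all 4 classes the lowest Smc1 library was above the highest H3K27ac library, so the antibody difference is present at every span.

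Anchors of desert contacts carried fewer reads than other anchors. The median over contacts of the geometric mean of both anchors' reads in deserts was 75.3% and 81.5% of that elsewhere in Smc1 BL6 libraries 1 and 2, and 78.1% and 87.7% in Smc1 NOD. It was 84.9% and 75.1% in H3K27ac BL6 and 86.5% and 80.5% in H3K27ac NOD. All 8 libraries lay below 100%, with a mean of 81.2%. The mean log2 ratio was -0.30 (two-sided exact permutation test within libraries, p = 0.00781, 0.0273 adjusted over 7, technical Smc1 libraries counted as separate). The antibodies did not differ detectably in this ratio: their log2 ratios differed by 0.02 (exact permutation p = 0.829; 0.967 adjusted), a difference whose sign changed when H3K27ac NOD library 1 was left out (-0.0079) or Smc1 BL6 library 1 (-0.012). Anchors were also narrower in deserts, with medians of 1205 to 1309 bp against 1427.5 to 1583.5 bp in the parental Smc1 libraries, so the part of anchor width in the read difference was not tested.

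**Figure D3:**
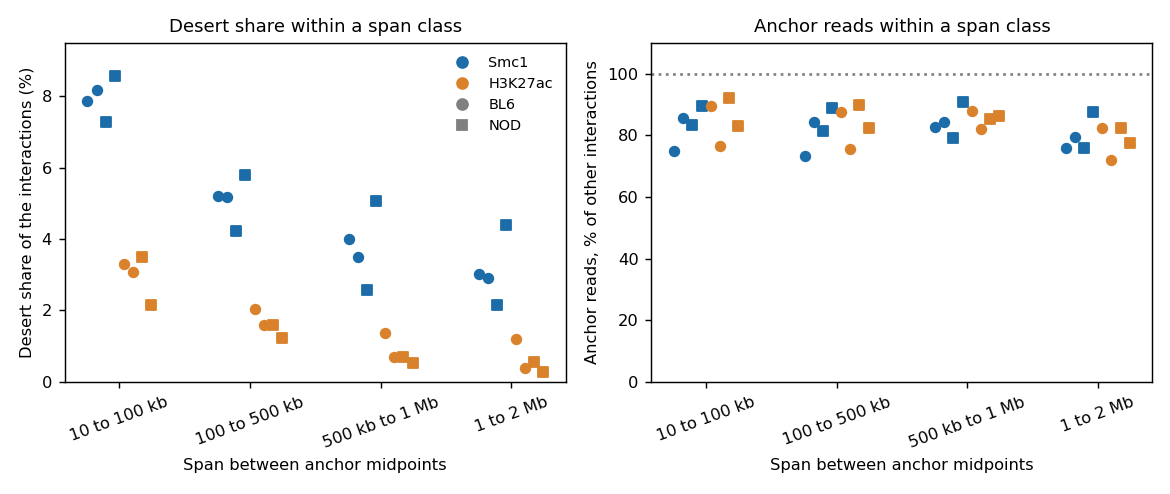
Desert share of interactions (%, left) and anchor reads of desert contacts as a percentage of other interactions (right) in 4 classes of span, 1 point per parental library. Smc1 points lie above H3K27ac points in every class on the left; on the right all points are below the dotted line at 100%, with the antibodies intermixed.

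Few desert contacts recurred between libraries. Between 34.2% and 43.4% of desert contacts had 3 or more read pairs in the parental Smc1 libraries, against 33.0% to 40.3% of other interactions. In H3K27ac these shares were 38.6% to 50.7% and 26.4% to 39.1%, and the desert share was the higher in 7 of the 8 libraries. Spans differed, with 14.4% of Smc1 desert contacts at 10 to 100 kb against 7.25% of others, and 19.2% against 6.79% in H3K27ac. Within spans of 100 to 500 kb the desert mean was the lower, 46.4% against 61.9% in Smc1 and 50.6% against 61.0% in H3K27ac. At 500 kb to 1 Mb it was 16.1% against 22.4% and 13.3% against 20.9%. From 1 to 2 Mb it was 13.2% against 14.0% and 9.85% against 12.4%. The part of span in the pooled shares was not tested. In pairs of 25 kb bins, 12.05% of the smaller Smc1 BL6 desert list was also listed in the other library of that group, against 24.3% for pairs outside deserts. The desert values were 9.41% in Smc1 NOD against 18.3%, 5.07% in H3K27ac BL6 against 16.8%, and 4.24% in H3K27ac NOD against 8.58%. Desert pairs thus recurred less in each of the 4 groups, over different numbers of pairs and with no test. Over all 10 tables, 111909 desert pairs of 2 different bins were listed. Of these, 30 were in all 6 Smc1 tables (4 parental tables and both tables of the 1 F1 library) and 1 in all 4 H3K27ac tables. Only 1 table of the antibody listed 86186 pairs in Smc1 and 8432 in H3K27ac. The same counts were not made for pairs outside deserts.

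The desert pair of H3K27ac that recurred in all 4 libraries joined chr1:183700001-183725000 to chr1:184425001-184450000, 725 kb apart. It joins the desert between Hhipl2 and 1700056E22Rik to that between Dusp10 and Hlx, a homeobox gene with a role in T cells. Its H3K27ac read pairs were 3 and 3 in BL6 and 2 and 2 in NOD, and its Smc1 read pairs were 3 and 5 in BL6 and 5 in NOD library 1, with none listed in NOD library 2 or F1. The 5 H3K27ac pairs next in order were each listed in 3 libraries, in the deserts Prl5a1-Sox4, Sall3-Galr1, Rps24-Zmiz1, Gm52008-Bcl11b and Eef2kmt-Rbfox1. In the desert next to Bcl11b, a transcription factor needed for T lineage commitment, the pair chr12:107550001-107575000 with chr12:107625001-107650000 had 5 and 8 H3K27ac read pairs in BL6 and 3 in NOD library 2. That pair was listed in no Smc1 table. In the desert next to Sox4, a factor of early lymphocytes, the pair chr13:28400001-28425000 with chr13:28500001-28525000 had 18 and 3 read pairs in BL6 and 3 in NOD library 1.

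Among Smc1 pairs listed in all 6 tables, 3 of the first 6 by mean share lay in the Sall3-Galr1 desert of chromosome 18. The F1 library enters this ranking in both its forms. The longest of these 3 spanned 525 kb and had 5 and 6 read pairs in BL6, 4 and 7 in NOD and 8 in F1 on either genome, and it was listed in no H3K27ac library. A pair in the desert between Foxo1, a factor of T cell quiescence and homing, and Cog6 joined chr3:52550001-52575000 to chr3:52750001-52775000. It had 13 and 7 Smc1 read pairs in BL6, 5 and 2 in NOD and 7 in F1 on either genome, and 10 in H3K27ac BL6 library 2 only. Even these most recurrent desert contacts therefore rest on single to low double digits of read pairs per library.

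A larger share of Smc1 than of H3K27ac desert contacts lay in the longest deserts, and a smaller share in the shortest. Deserts over 2 Mb held 30.7% ± 4.66 (SD, n = 4) of the Smc1 desert contacts and 9.88% ± 6.00 of those of H3K27ac. The ranges, 24.99% to 36.2% and 6.06% to 18.8%, did not overlap. Deserts under 500 kb held 6.64% ± 2.24 and 16.1% ± 4.24, with ranges of 4.67% to 9.65% and 10.2% to 20.1%. Each of these comparisons gave an exact permutation p of 0.0286, or 0.0381 adjusted over 4 tests that were chosen after the values were seen. Those 4 are a family apart from the 7 library tests, in which the same exact permutation p became 0.0667 for the desert share. Without Smc1 BL6 library 1 the exact p was 0.0571 for both classes, and so it was without Smc1 NOD library 2. For the class under 500 kb it was also 0.0571 without either of the other Smc1 libraries. Contacts that joined 2 different deserts made up 20.1% ± 3.30 of Smc1 and 22.8% ± 5.45 of H3K27ac desert contacts, which did not differ detectably (exact permutation p = 0.371; 0.371 adjusted).

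Depth was scaled to CPM, the read pairs per 1000000 used read pairs of the library. Per Mb of desert, Smc1 had 46.0 ± 6.32 CPM (SD, n = 4) in deserts under 500 kb and 84.1 ± 26.7 in deserts over 2 Mb. H3K27ac had 28.2 ± 6.99 and 7.67 ± 7.07 CPM per Mb. In deserts of 500 kb to 1 Mb and of 1 to 2 Mb, Smc1 had 81.7 ± 6.06 and 91.6 ± 12.1 CPM per Mb and H3K27ac 33.0 ± 10.2 and 24.5 ± 8.10. Smc1 was thus lowest in the shortest deserts and H3K27ac in the longest. A longer desert admits longer contacts within it, and the part of contact length in these values was not tested.

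**Figure D4:**
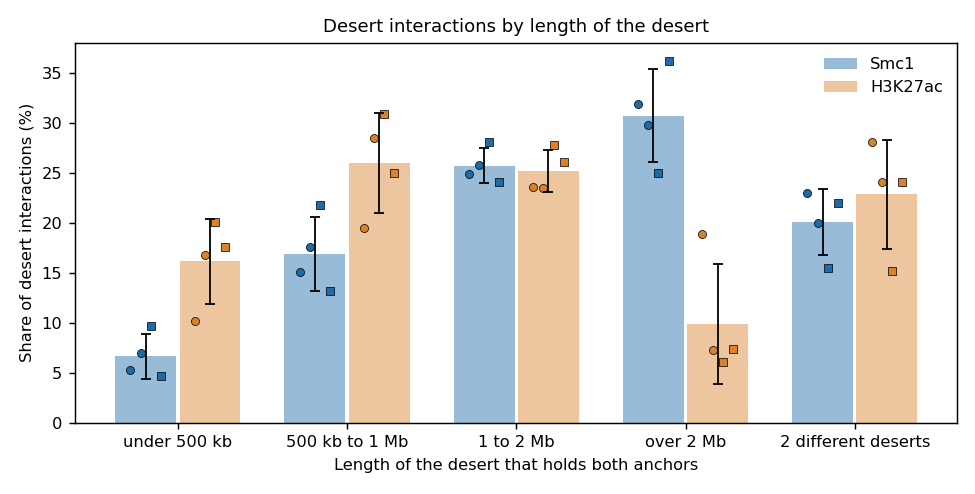
Share of desert contacts (%) by length of the desert that holds both anchors, with contacts between 2 different deserts apart; bars are means over 4 libraries, error bars SD, points libraries (circles BL6, squares NOD). Deserts over 2 Mb hold 24.99% to 36.2% of Smc1 and 6.06% to 18.8% of H3K27ac desert contacts.

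Single deserts are named here by their flanking protein-coding genes, and their values are CPM of the contacts within the desert. In 324 of the 629 deserts with a listed contact all 4 parental Smc1 libraries were above all 4 H3K27ac libraries, which is 51.5% of them, and the reverse held in 0 (0%). Over those of the 629 deserts with a Smc1 mean above 0, the median of the H3K27ac mean as a percentage of the Smc1 mean was 5.72%. The highest mean for Smc1 was that of the Myc-Gsdmc desert, chr15:62190361-63575971, downstream of the proto-oncogene Myc, which drives the growth of dividing thymocytes. It had 643 and 609 CPM in Smc1 BL6, 658 and 581 in Smc1 NOD and 668 and 606 in F1 on the BL6 and NOD genome. In H3K27ac it had 113 and 362 in BL6 and 108 and 514 in NOD. The Smc1 values lay within a narrow band, and the H3K27ac libraries numbered 2 were several times those numbered 1.

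The Sall3-Galr1 desert, chr18:81187021-82192496, ranked first in H3K27ac, and Sall3 encodes a zinc finger factor. Its H3K27ac values were 184 and 732 CPM in BL6 and 126 and 619 in NOD, again high in the libraries numbered 2. Its Smc1 values were 519 and 496 in BL6, 509 and 392 in NOD and 437 and 446 in F1, so the antibodies overlapped. The Id2-Rnf144a desert, next to the E protein inhibitor Id2, was more even, with 275 and 268 CPM in Smc1 BL6, 317 and 258 in Smc1 NOD, 213 and 270 in H3K27ac BL6 and 165 and 259 in H3K27ac NOD. Rps24-Zmiz1, next to the Notch cofactor gene Zmiz1, had Smc1 means of 149 ± 15.6 (SD, n = 4) and H3K27ac means of 186 ± 69.1.

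Other deserts among the 8 highest in H3K27ac had more contacts in the H3K27ac libraries numbered 1. Arpp21-Pdcd6ip, next to Arpp21, which is known as a gene of immature thymocytes, had 245 and 126 CPM in H3K27ac BL6 and 496 and 113 in H3K27ac NOD, against 127 to 210 in the parental Smc1 libraries. Bcl11a-Fancl, next to the B lineage and progenitor factor Bcl11a, had 422 and 104 in H3K27ac BL6, 559 and 70.3 in H3K27ac NOD and 340 to 517 in Smc1. Auts2-Castor2, next to the neurodevelopmental gene Auts2, had 284 and 73.9 in H3K27ac BL6, 491 and 12.1 in H3K27ac NOD and 143 to 243 in Smc1. Plekhb2-Hs6st1 was high in 1 of them only, with 145 and 131 in H3K27ac BL6, 297 and 143 in H3K27ac NOD and 119 to 226 in Smc1. In each of these 4 deserts H3K27ac libraries lay on both sides of the Smc1 range or overlapped it, so the spread between H3K27ac libraries was larger than the difference between antibodies.

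Other deserts among the 8 highest in Smc1 were near 0 in some H3K27ac libraries. Celf4-Pik3c3 (4.11 Mb), next to the neuronal RNA-binding protein gene Celf4, had 647 and 585 CPM in Smc1 BL6, 409 and 494 in Smc1 NOD and 499 and 491 in F1. Its H3K27ac values were 4.54 and 1.66 in BL6 and 6.03 in NOD library 2, with none listed in NOD library 1. Tenm2-Mat2b, next to the teneurin gene Tenm2, had 430 and 440 in Smc1 BL6 and 299 and 915 in Smc1 NOD, against 163 and 2.49 in H3K27ac BL6 and 31.5 and none listed in H3K27ac NOD.

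The same libraries were high in the deserts beside the contactin-associated genes Cntnap5a and Cntnap5b. Cntnap5b-Cdh20 had 385 and 370 CPM in Smc1 BL6, 265 and 909 in Smc1 NOD and 488 and 5.82 in H3K27ac BL6, with 44.6 and none listed in H3K27ac NOD. Dsel-Cntnap5a had 300 and 374, then 309 and 804, in these Smc1 libraries, and 333 and 4.15, then 76.1 and none listed, in H3K27ac. Smc1 NOD library 2 and H3K27ac BL6 library 1 thus carried the highest value of their antibody in Tenm2-Mat2b, Cntnap5b-Cdh20 and Dsel-Cntnap5a. These are also the libraries with the highest desert share of their antibody. Without Smc1 NOD library 2 and without H3K27ac BL6 library 1, each left out in turn, the antibody difference in desert share stayed between -3.41 and -2.82 points, as it did without any other single library.

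The deserts next to genes of a list drawn up for thymocytes are taken next. The list holds T lineage factors but also genes not particular to that lineage, such as Mef2c, Meis1, Ebf1 and Spi1. Its figures are therefore not those of T lineage genes alone. Of 45 listed thymocyte genes, 18 flank a desert, giving 22 such deserts of which 20 held a listed contact. The list was chosen with earlier results of these data known. In these 20 the median H3K27ac mean was 63.2% of the Smc1 mean, beside 5.72% over those of the 629 with a Smc1 mean above 0. The median length of the 20 was 509 kb beside 429 kb over all 629, and their median Smc1 mean was 73.2 CPM beside 21.2 CPM. Contacts not listed count as 0 here, and the part of this coverage difference in the 2 percentages was not tested. All 4 Smc1 libraries lay above all 4 H3K27ac libraries in 6 of the 20 (30%, beside 51.5% of the 629). These figures describe the list and carry no test. H3K27ac lay above Smc1 in all libraries in 0 of the 20.

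The 6 deserts with separated libraries were Celf2-Gata3, Zeb2-Acvr2a, Etaa1-Meis1, Cetn3-Mef2c, A1bg-Myc and Myc-Gsdmc. Celf2-Gata3, next to the T helper and T lineage factor Gata3, had 375 and 355 CPM in Smc1 BL6, 467 and 385 in Smc1 NOD and 493 and 469 in F1. Its H3K27ac values were 43.1 and 198 in BL6 and 55.1 and 245 in NOD, all lower than any Smc1 value. Zeb2-Acvr2a, next to the repressor Zeb2, had 556 and 519 in Smc1 BL6 and 452 and 681 in Smc1 NOD against 111, 79.7, 21.0 and 54.3 in H3K27ac BL6 1 and 2 and NOD 1 and 2. Cetn3-Mef2c, next to the B cell and neuronal factor Mef2c, had 106 and 93.5 in Smc1 BL6 and 86.0 and 54.6 in Smc1 NOD, while only H3K27ac BL6 library 2 listed contacts there (9.97).

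Upstream of Myc, A1bg-Myc had 94.2 and 122 CPM in Smc1 BL6 and 164 and 152 in Smc1 NOD, against 65.8 and 83.9 in H3K27ac BL6 and 76.1 and 82.4 in H3K27ac NOD. Its H3K27ac libraries were close together, unlike those of Myc-Gsdmc downstream. Etaa1-Meis1, next to the progenitor homeobox gene Meis1, had Smc1 values of 25.9 to 66.0 and H3K27ac values up to 13.6, with none listed in NOD library 2.

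In the other 14 deserts of the list the antibodies overlapped. Gm52008-Bcl11b had 103 and 148 CPM in Smc1 BL6, 140 and 98.3 in Smc1 NOD, 59.0 and 183 in H3K27ac BL6 and 65.6 and 123 in H3K27ac NOD. Runx1-Setd4, next to the T lineage factor Runx1, had 93.2 and 63.7 in Smc1 BL6 and 111 and 33.7 in Smc1 NOD. In H3K27ac it had 89.7 in BL6 library 2, 7.87 and 139 in NOD and none listed in BL6 library 1. The genome organiser of thymocytes Satb1 flanks 2 deserts: Satb1-Kcnh8 had an H3K27ac mean of 49.7 ± 45.3 (SD, n = 4) and a Smc1 mean of 39.7 ± 29.1, and Tbc1d5-Satb1 had 3.97 ± 4.89 and 11.6 ± 4.72.

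Ets1-Kirrel3, next to the lymphoid factor Ets1, had a Smc1 mean of 187 ± 41.5 (SD, n = 4) and an H3K27ac mean of 120 ± 95.5 CPM. Tox-Car8, next to Tox, needed for CD4 T cell development, had 71.0 ± 23.5 and 21.8 ± 24.1, and Mc2r-Tcf4, next to the E protein gene Tcf4, had 95.8 ± 18.5 and 59.5 ± 50.1. The mean of H3K27ac was the higher in Prl5a1-Sox4 (84.7 ± 54.2 against 69.4 ± 43.3), Ebf1-Clint1 (48.3 ± 41.9 against 39.4 ± 14.7), Vps13c-Rora (18.6 ± 16.2 against 8.42 ± 6.07), Gm765-Foxp1 (13.4 ± 14.1 against 12.2 ± 1.53) and Satb1-Kcnh8, in each by less than the SD of its H3K27ac libraries. Meis1-Spred2 had Smc1 50.9 ± 10.7 and H3K27ac 44.0 ± 37.9. The smallest, Mef2c-Tmem161b, had 2.12 ± 1.48 in Smc1 and no listed H3K27ac contact. Erbb4-Ikzf2 (22.6 kb) and Bcl6-Lpp (4.49 kb) held no listed contact in any table.

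**Figure D5:**
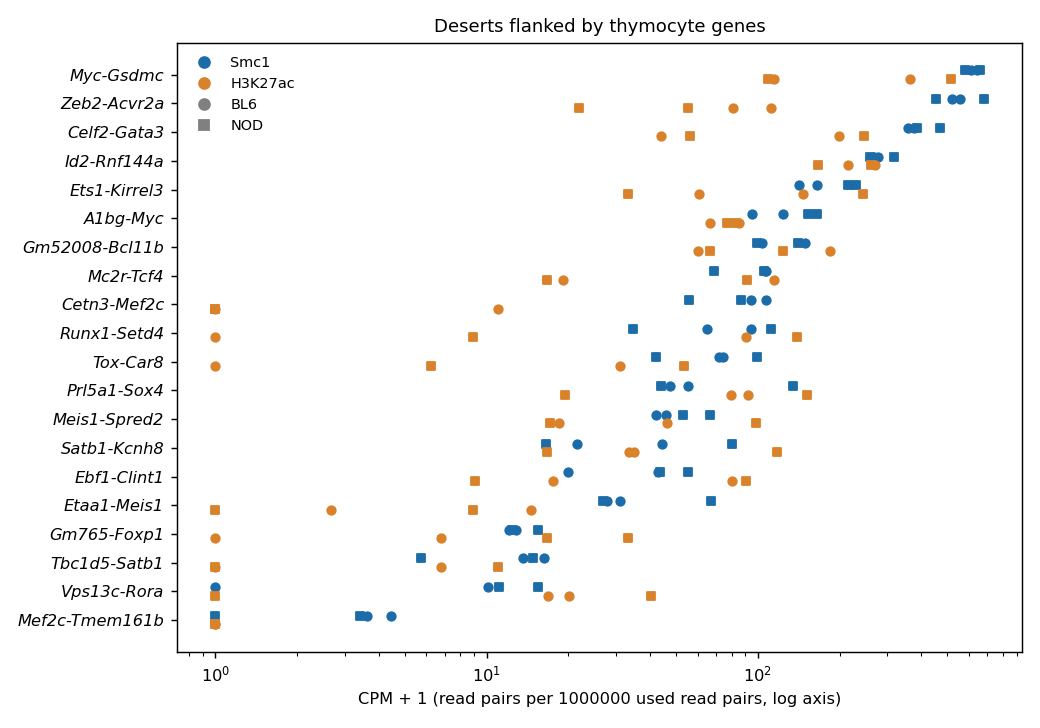
Read pairs within each of the 20 deserts flanked by a listed thymocyte gene, as CPM with 1 added (log axis), 1 point per parental library (Smc1 above, H3K27ac below in each row). Deserts are ordered by their Smc1 mean; Smc1 points cluster tightly in Myc-Gsdmc while H3K27ac points spread from 108 to 514.

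Antibodies were also compared over 100 kb bins of the genome, with a strain term, in edgeR (quasi-likelihood test, p adjusted by Benjamini-Hochberg over 22689 bins). Here an interaction counts once in each bin that holds an anchor, so the count of a desert bin includes its contacts with genes. Of 4136 desert bins tested, 2314 (55.9%) were lower in H3K27ac than in Smc1, where 22.1% of all bins tested were called lower. Only 21 desert bins (0.508%) were higher in H3K27ac, where 7.85% of all bins were called higher. Outside deserts, 14.5% of 18553 bins were lower and 9.48% higher. Desert bins called lower lay in 365 deserts. The split of calls moved with the settings. Of all called bins, 26.2% were higher in H3K27ac with TMM and 11.4% with DESeq2 size factors. Those factors moved the median log2 difference of all bins from -0.35 to -0.55, and with them 2414 desert bins were lower and 6 higher. With TMM kept, the share of called bins that were higher was 17.3% with 50 kb bins and 36.7% with 250 kb bins. It was 8.39% with only contacts of at least 3 read pairs.

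Many of the lower desert bins had no listed H3K27ac read pair at all. That held for 1057 of the 4136 tested desert bins (25.6%) and for 4.26% of the other bins, and 1049 of the 2314 lower desert bins were of this kind. The other 1265 had listed H3K27ac read pairs, but often few. The median over the 4136 tested desert bins was 17.1 CPM in Smc1 and 1.44 in H3K27ac, as shares of the sum over all bins. In a fit of the H3K27ac libraries alone, only 918 desert bins passed the same filter on low counts. Most tested desert bins thus entered through Smc1, so the share called lower in deserts is given as a description. The count of called desert bins, 2335 in both directions, was 1308 without Smc1 BL6 library 1, 1471 without Smc1 BL6 library 2 and 837 with only contacts of at least 3 read pairs.

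The 5 lower desert bins named by size were all listed in no H3K27ac library, so no fold is given. Their bins lay in Btbd3-Sptlc3, Nectin3-Gm52257, Dcc-Mex3c, Pou3f2-Mms22l and Dnah5-Ctnnd2, and the last 4 are flanked by a cell adhesion gene (Nectin3), an axon guidance receptor gene (Dcc), a neural POU factor gene (Pou3f2) and the catenin gene Ctnnd2. The Smc1 read pairs of the Btbd3-Sptlc3 bin, chr2:138600001-138700000, were 159 and 173 in BL6, 94 and 151 in NOD and 48 and 43 in F1 (BL6 and NOD genome). Bins of this kind passed the filter on low counts through Smc1 alone, so their calls are given as a description.

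Of the higher desert bins, the 5 named lay in Mn1-Cryba4, Sdk2-Rpl38, Plekhb2-Hs6st1, Matn1-Ptpru and Rps24-Zmiz1. The bin of Plekhb2-Hs6st1, chr1:35600001-35700000, had 106 and 103 CPM (here of the sum over all bins) in H3K27ac BL6 and 152 and 134 in H3K27ac NOD, against 48.1 and 71.9 in Smc1 BL6 and 64.9 and 78.3 in Smc1 NOD. All 4 H3K27ac libraries lay above all 4 Smc1 libraries, with a log2 difference of 1.08 ± 0.23 (SE) and an adjusted p of 0.0104 in edgeR. The bin of Rps24-Zmiz1, chr14:25000001-25100000, had 128 and 204 in H3K27ac BL6 and 227 and 216 in H3K27ac NOD, against 115, 95.3, 111 and 96.8 in Smc1. Its log2 difference was 1.06 ± 0.24 (SE), adjusted p 0.0123 in edgeR. Both were lost only with contacts of at least 3 read pairs (adjusted p 0.113 and 0.0588 in edgeR).

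The other 3 higher bins were less firm. Their log2 differences in edgeR were 1.19 ± 0.34 (SE) in Mn1-Cryba4, 1.09 ± 0.31 in Sdk2-Rpl38 and 1.08 ± 0.36 in Matn1-Ptpru, with adjusted p of 0.0275, 0.0287 and 0.0486. They lost their calls in 7, 6 and 8 of 13 alternatives, DESeq2 size factors and the omission of H3K27ac NOD library 1 or of either Smc1 NOD library among them for all 3. No alternative reversed their direction, and the highest adjusted p in edgeR or DESeq2 was 0.383.

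The strain comparison of desert contacts found little that exceeded the spread between libraries. The desert share in Smc1 was 4.18% in BL6 and 4.38% in NOD, a difference of 0.196 points (exact permutation p = 1; 2 against 2 cannot go below 0.333). Without NOD library 2 it was -0.69. For H3K27ac it was 1.27% in BL6 and 0.985% in NOD, a difference of -0.286 points (exact permutation p = 0.667), and 0.0486 without BL6 library 1. The 2 libraries of Smc1 NOD, at 3.49% and 5.26%, lay on either side of both Smc1 BL6 libraries.

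Over bins, 2 of 4439 desert bins were higher in NOD Smc1 and 0 lower by edgeR's quasi-likelihood test, where 0.107% of all 23259 bins tested were called higher. Both lay in 1 desert, Pou3f2-Mms22l on chromosome 4. The bin chr4:23600001-23700000 had 182 and 180 read pairs in NOD libraries 1 and 2 and 40 and 49 in BL6, with 16 and 18 in F1 on the BL6 and NOD genome. As CPM of the sum over bins these were 57.05 and 62.9 in NOD, 10.9 and 9.71 in BL6 and 10.8 and 11.8 in F1. NOD was higher by 2.56 ± 0.31 (log2, SE; adjusted p 0.0154 in edgeR), and the F1 values were near those of BL6 on both genomes. This SE and p rest on technical libraries of 1 biological replicate per strain, so they do not measure the spread between animals. No H3K27ac read pair was listed for the bin.

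The second bin, chr4:24100001-24200000, had 152 and 218 read pairs in NOD, 45 and 54 in BL6 and 20 in F1 on either genome, with a log2 difference of 2.44 ± 0.33 (SE) and an adjusted p of 0.0375 in edgeR. The count of called desert bins in Smc1 rests on single libraries. It was 0 without BL6 library 2, 1 without BL6 library 1, 72 without NOD library 2 and 545 without NOD library 1, where 1, 12, 205 and 2087 bins were called in all. It was 0 of 20 with contacts of at least 3 read pairs and 13 of 60 in DESeq2. The call at chr4:23600001-23700000 in Pou3f2-Mms22l was lost without BL6 library 1 or 2 and with contacts of at least 3 read pairs, where the log2 differences were 2.66, 2.45 and 3.15. An unadjusted p under 0.05 was reached by 225 desert bins (5.07% of those tested) and by 913 of all bins (3.93%).

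In H3K27ac 0 of 918 tested desert bins differed between strains in edgeR, and 0 of 14573 bins (0%) were higher in NOD over the genome. An unadjusted p under 0.05 was reached by 8 desert bins (0.871%) and 65 of all bins (0.446%). DESeq2 called 0 desert bins and 19 of all bins, and without NOD library 2 the edgeR count was 3 desert bins of 40 in all. Of the 4537 desert bins with any listed contact, 918 passed the filter on low counts. Most desert bins thus could not be compared between strains in this antibody. Simulated counts with changes of known size were also run through the edgeR strain fits. The changed bins were drawn from all tested bins and not from deserts alone. In the antibody fit, the median Smc1 CPM was 17.1 in desert bins and 44.3 in other bins, so the rates need not hold in deserts. The H3K27ac fit called 0 of 50 bins changed 4-fold, 6 of 50 changed 8-fold and 18 of 50 changed 16-fold. The Smc1 fit called 8 of 50 at 2-fold and 42 of 50 at 4-fold. The 0 calls in H3K27ac therefore do not show that the strains were alike.

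The F1 library gave nearly the same desert contacts on both genomes. Of its desert bin pairs, 9053 were listed in both forms, which is 88.7% of the 10204 found with the BL6 genome and 87.8% of the 10309 found with the NOD genome. Of 276 deserts with at least 20 read pairs on the genome with more, 3 exceeded 1.5-fold in favour of the NOD genome and 3 in favour of the BL6 genome, after 5 CPM was added to each value. Satb1-Kcnh8 had 13 read pairs with the BL6 and 30 with the NOD genome, Rragc-Pou3f1 had 17 and 31, and Nmur2-Gria1 had 27 and 45. Adam34l-Fat1 had 22 and 11, Ripk2-Mmp16 had 31 and 19, and Manea-Epha7 had 40 and 26. These are forms of 1 library, so their differences are differences of mapping and listing and have no replicate.

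Noncoding RNA genes lie in many deserts, and H3K27ac desert anchors fell in them more often. RefSeq lncRNA genes covered 9.41% of desert territory. They held 11.2% and 11.3% of the desert anchors in Smc1 BL6, 12.7% and 10.7% in Smc1 NOD, 15.4% and 18.6% in H3K27ac BL6 and 16.7% and 18.4% in H3K27ac NOD. The H3K27ac mean was 17.2% ± 1.52 (SD, n = 4) and the Smc1 mean 11.5% ± 0.880, without overlap. The exact permutation p was 0.0286, adjusted to 0.0381 over the 4 tests chosen after the values were seen, apart from the 7 library tests. The difference was 5.76 points, and 5.32 to 6.39 points with each library left out in turn.

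Desert anchors that touched the start of such a gene were counted as well. Promoter windows, 250 bases before to 50 after a start in RefSeq on GRCm38.p6, numbered 1022 for 880 lncRNA genes in deserts. They met 0.5003% to 0.597% of parental Smc1 desert anchors and 0.714% to 1.25% of H3K27ac desert anchors. The share that the coverage of these windows alone would give was not computed. To give the DNA at anchors of the named deserts, the sequences of 3 windows are printed, chosen after their values were seen. Among windows in the deserts ranked or listed above by name, they were listed in the most parental libraries, 5 of 8 each, with ties settled by mean CPM. They are written on the gene's strand, 5′ to 3′, with capitals at each match to AGGAAG on either strand, the core of a motif bound by ETS factors such as Ets1.
Gm36251, chr9:113113914-113114213, minus strand: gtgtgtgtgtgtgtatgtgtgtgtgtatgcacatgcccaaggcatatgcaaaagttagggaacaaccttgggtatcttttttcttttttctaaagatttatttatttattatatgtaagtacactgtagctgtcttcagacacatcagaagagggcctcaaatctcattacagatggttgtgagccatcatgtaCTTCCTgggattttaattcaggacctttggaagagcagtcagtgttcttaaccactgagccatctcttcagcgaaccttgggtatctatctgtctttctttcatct
Gm30113, chr15:62953966-62954265, plus strand: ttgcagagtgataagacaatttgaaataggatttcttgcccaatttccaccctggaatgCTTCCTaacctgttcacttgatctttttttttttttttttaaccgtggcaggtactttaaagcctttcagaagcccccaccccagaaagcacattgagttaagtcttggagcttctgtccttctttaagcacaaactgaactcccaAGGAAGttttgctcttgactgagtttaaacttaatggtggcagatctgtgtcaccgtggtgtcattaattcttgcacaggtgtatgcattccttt
Gm29835, chr12:25978793-25979092, plus strand: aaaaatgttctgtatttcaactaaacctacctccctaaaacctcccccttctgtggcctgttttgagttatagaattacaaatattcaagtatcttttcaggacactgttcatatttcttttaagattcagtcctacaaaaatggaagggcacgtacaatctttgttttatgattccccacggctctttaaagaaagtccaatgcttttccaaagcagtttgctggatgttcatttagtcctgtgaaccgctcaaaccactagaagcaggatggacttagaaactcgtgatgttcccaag

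The window of Gm30113 in the Myc-Gsdmc desert held 2 matches, that of Gm36251 in the Arpp21-Pdcd6ip desert 1 and that of Gm29835 in the Id2-Rnf144a desert 0. Of all 32851 promoter windows of 300 bases, 35.4% held at least 1 match. The RUNX core TGTGGT, searched on both strands, was in none of the 3 windows and in 16.8% of all windows. The contacts at the Gm30113 window had 22 and 17 Smc1 read pairs in BL6, 4 in NOD library 2 and 4 in F1 on either genome, with 2 and 8 H3K27ac read pairs in BL6. The window of Gm29835 had 15 and 22 in Smc1 BL6, 12 and 5 in Smc1 NOD and 13 in F1 on either genome, and 5 in H3K27ac BL6 library 2. The window of Gm36251 had 7 and 3 in Smc1 BL6, 2 in Smc1 NOD library 1, and 6 in H3K27ac library 1 of each strain. The last is thus listed in the 2 H3K27ac libraries in which its desert was high.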

How the data were processed

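The deposited tables, 1 per library and mapping genome, give counts of read pairs per interaction and counts of reads per anchor, both without normalization per the file headers. The authors' p-value and q-value of every interaction are deposited beside them. All q-values were at most 0.05 and all interactions had at least 2 read pairs, as checked on the values. Per the submitters' processing notes, the tools were MACS, Juicer 1.7.6 and HiC-Pro (roles not given) and the build was GRCm38.

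Interactions on chromosomes 1 to 19 with midpoints at least 10 kb apart were used. Deserts were bounded by RefSeq protein-coding gene bodies of GRCm38.p6, which leave out antigen receptor gene segments. Library measures were compared by exact permutation over libraries. Read pairs per 100 kb bin were tested with edgeR 4.0.16 in R 4.3.3 (quasi-likelihood, TMM, robust dispersion, default filter, Benjamini-Hochberg, threshold 0.05), checked on simulated counts. DESeq2 1.42.0 was an alternative, and other sums used Python 3.11.15 with pandas 2.3.3.

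Named were the 8 deserts of highest mean share per antibody, the 6 desert pairs of 25 kb bins listed in the most tables per antibody, up to 5 rises and 5 falls per fit with separated libraries and at least 20 read pairs, up to 3 deserts each way in F1, and deserts flanked by a listed thymocyte gene. Members and lists were chosen with earlier results of these data known. Other alternatives were the distance limit, the q-value, span, chromosomes, gene names, bin size, the filter, read pairs and each library left out. Precision is limited by 2 libraries per group. Sequences of the anchors themselves are not shown, as no genome was used, and no promoter window of chromosome 18 is shown.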

Additional observations from a re-analysis of the deposited data

Results flagged for a closer look

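Contacts under 10 kb were left out of the desert contacts, and in the NOD tables they held 1 extreme interaction. In the desert between Lrrc4c and Iftap on chromosome 2, an interaction joined anchors at chr2:98661815-98664406 and chr2:98665730-98667807 with 5571 read pairs in Smc1 NOD library 1. The matching interaction had 2997 read pairs in Smc1 NOD library 2, 1278 in H3K27ac NOD library 1 and 1813 in H3K27ac NOD library 2. The F1 library had 851 read pairs there on the NOD genome, while its largest desert contact under 10 kb on the BL6 genome had 27. In BL6 libraries the largest such contact anywhere in a desert had 47 and 58 read pairs with Smc1 and 28 and 19 with H3K27ac. The high values are thus in all 5 tables made on the NOD genome, the F1 table included, and in none of the 5 made on the BL6 genome.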

How the results depend on the processing

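Of 115 alternatives for the 7 library measures, 104 kept the direction and the side of the threshold. For the 2 strain measures only the direction could change, as 2 against 2 libraries cannot give an exact p under 0.333. The desert share of H3K27ac against Smc1 kept its direction and an unadjusted p under 0.05 in all except relabelling within strain (-3.15 points), where 0.0556 is the smallest exact p that can be reached. The Smc1 strain difference in desert share turned to -0.31 points at a q-value up to 0.01 and -0.171 at spans of 100 to 500 kb. With each library left out it ran from -0.69 to 1.08, and the H3K27ac difference from -0.621 to 0.0486. The shorter desert span lost its threshold at a q-value up to 0.01 (-0.32 log2), where the antibody difference in desert span passed (-0.73, exact p 0.0286). The antibody difference in anchor ratio reversed for deserts from 500 kb (-0.037) and at a q-value up to 0.01 (-0.022), and ran from -0.0124 to 0.0611 with each library left out.

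The count of desert bins called between antibodies (2335) was 1063 with 250 kb bins and 837 from 3 read pairs, and 1308 to 3234 with each library left out. For the Smc1 strain fit (2) it was 13 in DESeq2, 0 from 3 read pairs and 0 to 545 with each library left out, and for H3K27ac (0) it was 0 to 3. With the replicate block, the Smc1 count was 16 (109 of all bins, 25 without it) and the H3K27ac count 0 (22 of all bins, all higher in NOD, 0 without it), and the differences in desert share were 0.196 points (exact p 1) and -0.286 points (exact p 0.5). With 2 pairs and no label that ties the numbers to a shared batch, the numbers were not taken to pair samples; the pairing check is the correlation of 0.098 in Smc1 and 0.72 in H3K27ac. Counting antigen receptor segments as genes, an alternative chosen after seeing the data, moved the Smc1 BL6 library 1 share from 4.21% to 4.18%. The cause of these changes was not tested. In H3K27ac 918 desert bins passed the filter for the strain fit and in Smc1 4439, and the part of depth in this was not tested.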
